A study of Homo sapiens with 12 samples.

Results

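The genes described here are 37 members of the transcriptional programme of ATF4 and of the amino acid stress response, measured in human HCT116 cells after depletion of the phosphatase Wip1, after inhibition of the kinase ATM, and after both. The members were named as a list of known ATF4 targets, cofactors and amino acid genes, and a probe was taken for a member when its symbol in the array's probe annotation matched. Of the 37 members, 36 had a probe, 53 probes in all. A gene was tested when at least 1 of its probes had a detection p under 0.05 on 3 or more of the 12 arrays, and 34 members passed among 11785 genes tested. VLDLR, a lipoprotein receptor with 2 probes, and ALDH1L2, a mitochondrial folate enzyme, had no probe above background on any array. GPT2, a glutamate and alanine transaminase, is not analysed here. Just inside the detection limit lay SLC7A11, above background on 3 arrays, and just outside it a second probe of SLC6A9, above background on 1.

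ATF4 is the effector of the integrated stress response. Kinases that sense uncharged tRNA, unfolded protein in the endoplasmic reticulum, haem shortage or double-stranded RNA phosphorylate the initiation factor eIF2alpha, which slows general protein synthesis while the ATF4 message is translated more efficiently. ATF4 then binds composite C/EBP-ATF elements as a dimer with other leucine-zipper proteins and induces amino acid transporters, biosynthetic enzymes and tRNA synthetases, together with factors such as DDIT3 (CHOP), TRIB3 and PPP1R15A that shape or end the response. Much of the regulation of ATF4 is therefore at the level of protein, which these arrays do not measure.

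HCT116 is an established line of human colorectal carcinoma cells. The 4 groups, each of 3 arrays described by the submitters as biological replicates, were untreated parental cells (WT), parental cells with 10 µM ATM inhibitor for 3 days (WT+ATMi), untreated cells with a short hairpin RNA against Wip1 (Wip1SH), and hairpin cells with the same inhibitor treatment (Wip1SH+ATMi). The inhibitor was renewed daily, and the labels name neither the compound nor a vehicle. No group with a control hairpin is among the samples, so depletion of Wip1 and the introduction of a hairpin cannot be told apart, and the labels do not say whether the hairpin cells were 1 clone or a pool.

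PPM1D, the gene of Wip1, checked the hairpin label. PPM1D read 10.28, 10.43 and 10.31 on the WT arrays, 10.62, 10.62 and 10.68 on WT+ATMi, 8.74, 8.43 and 8.87 on Wip1SH, and 8.86, 8.83 and 8.69 on Wip1SH+ATMi. All 6 hairpin arrays lay below all 6 arrays without the hairpin. ATM mRNA, whose protein the inhibitor targets, did not pass the test in any comparison. Of 7 markers of colon epithelium, 6 (EPCAM, CDH1, KRT8, KRT18, KRT19 and CDX2) were above background on all 12 arrays and VIL1 on none. The fibroblast marker COL1A1 was above background on 12 arrays, at a normalized log2 intensity of 6.42 to 7.19, DCN on 3, COL1A2 on 1 and PDGFRB on none. Of the blood cell markers, CD14 was above background on 3 arrays and PTPRC and CD3E on none. Summed over the 7 epithelial markers, log2 intensity was 75.8 to 76.2 in WT, 75.6 to 76.02 in Wip1SH, 74.8 to 75.5 in WT+ATMi and 74.3 to 74.7 in Wip1SH+ATMi, so all 6 inhibitor arrays lay below all 6 untreated arrays. The sum over 4 fibroblast markers was 21.8 to 22.7 in WT, 22.0 to 22.5 in WT+ATMi, 21.6 to 22.0 in Wip1SH and 21.8 to 22.7 in Wip1SH+ATMi, and that over 3 blood cell markers lay between 14.7 and 15.8 on all arrays. Arrays differed in brightness along the groups: 17650 to 17929 probes were above background on WT arrays, 18568 to 18961 on Wip1SH, 18723 to 19654 on WT+ATMi and 19505 to 20408 on Wip1SH+ATMi. Since a bulk array measures a mean over the culture, fewer cells expressing a gene and less mRNA per cell cannot be told apart.

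The sequences below show where the ATF4-type element occurs at the members' start sites, because ATF4 acts on its targets through it. The core searched was TGATGNAA, on both strands, in RefSeq promoter windows of 300 bases (250 upstream of a start site and 50 downstream, GRCh38.p14). Windows were held for 29 of the 37 members, and 9 of the 29 (31.0%) contained the core, against 1217 of all 27305 genes with a window (4.46%). Per window the shares were 18.8% of 48 member windows and 3.62% of all 35116. The members were named in part as known ATF4 targets, so a higher share can follow from that choice and is no result of these arrays. A match is a description of these letters and not a binding site. Capitals mark the core, read in the direction of the gene, with TTNCATCA where the core is on the opposite strand.
ASNS: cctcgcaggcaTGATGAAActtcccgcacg
ATF3: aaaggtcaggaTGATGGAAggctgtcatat
CEBPG: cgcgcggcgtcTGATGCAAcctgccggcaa
CHAC1: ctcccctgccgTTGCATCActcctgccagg
JDP2: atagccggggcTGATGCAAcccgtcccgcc
SLC1A4: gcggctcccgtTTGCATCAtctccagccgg
SLC1A5: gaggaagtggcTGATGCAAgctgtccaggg
SLC3A2: tgcaggactccTTACATCAgctcc
SLC7A1: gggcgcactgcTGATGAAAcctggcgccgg

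CEBPG, JDP2 and SLC1A5 carried the identical core TGATGCAA on the gene's strand, and CHAC1 and SLC1A4 the same letters on the opposite strand. The stretches lay at chr7:97872458-97872487 on the minus strand (ASNS), chr1:212565205-212565234 (ATF3), chr19:33374060-33374089 (CEBPG), chr15:40953251-40953280 (CHAC1), chr14:75427995-75428024 (JDP2), chr2:64989381-64989410 (SLC1A4), chr19:46784893-46784922 on the minus strand (SLC1A5), chr11:62881725-62881748 (SLC3A2) and chr13:29595663-29595692 on the minus strand (SLC7A1), the others being on the plus strand. The core began 68 bases before the start site in ASNS, 191 in ATF3, 42 in CEBPG, 209 in CHAC1, 16 in JDP2, 7 in SLC1A4 and 97 in SLC1A5. In SLC3A2 and SLC7A1 it began 38 and 8 bases after it. The 250 bases upstream of ASNS (chr7:97872409-97872658, minus strand, 66.0% G and C) and of CHAC1 (chr15:40953221-40953470, plus strand, 64.8%) are given whole. They were picked as standard reporters of ATF4 activity that rose in Wip1SH against WT. Of the other members with the core, ATF3, CEBPG, SLC1A4 and SLC7A1 also rose there, JDP2 fell, and SLC1A5 and SLC3A2 did not pass the test. Members without a listed core rose there too, among them CREBRF, DDIT3, PPP1R15A and TRIB3, and others, such as CTH and PHGDH, fell. Whether the core went with the rise was not tested. Activity of ATF4 at these elements was not measured.
ASNS: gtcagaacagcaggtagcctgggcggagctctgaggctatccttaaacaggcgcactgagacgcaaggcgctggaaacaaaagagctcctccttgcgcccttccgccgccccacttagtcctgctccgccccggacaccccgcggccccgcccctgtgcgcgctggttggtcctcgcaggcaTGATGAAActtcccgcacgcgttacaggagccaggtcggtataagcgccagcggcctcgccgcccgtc
CHAC1: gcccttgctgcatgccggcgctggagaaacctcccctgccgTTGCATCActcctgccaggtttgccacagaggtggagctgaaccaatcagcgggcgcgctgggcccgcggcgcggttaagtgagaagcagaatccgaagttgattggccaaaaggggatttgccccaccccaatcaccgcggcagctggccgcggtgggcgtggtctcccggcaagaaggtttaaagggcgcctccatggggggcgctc

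Across the 34 tested members, the group mean was highest in Wip1SH+ATMi for 17, in Wip1SH for 10, in WT for 5 and in WT+ATMi for 2. It was lowest in WT for 16, in WT+ATMi for 9, in Wip1SH for 6 and in Wip1SH+ATMi for 3. The median member lay below its own mean over the 12 arrays on each of the 6 arrays without the hairpin (-0.22 to -0.11 on the log2 scale), and above it on each of the 6 hairpin arrays (0.14 to 0.23). The corresponding medians over all tested genes were between -0.025 and 0.029 on every array. Values throughout are normalized log2 intensities, fold changes are differences of group means on that scale with their SE, and adjusted p comes from limma's moderated test with Benjamini-Hochberg adjustment over all 11785 genes. A gene was called changed at an adjusted p under 0.05.

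**Figure D1:**
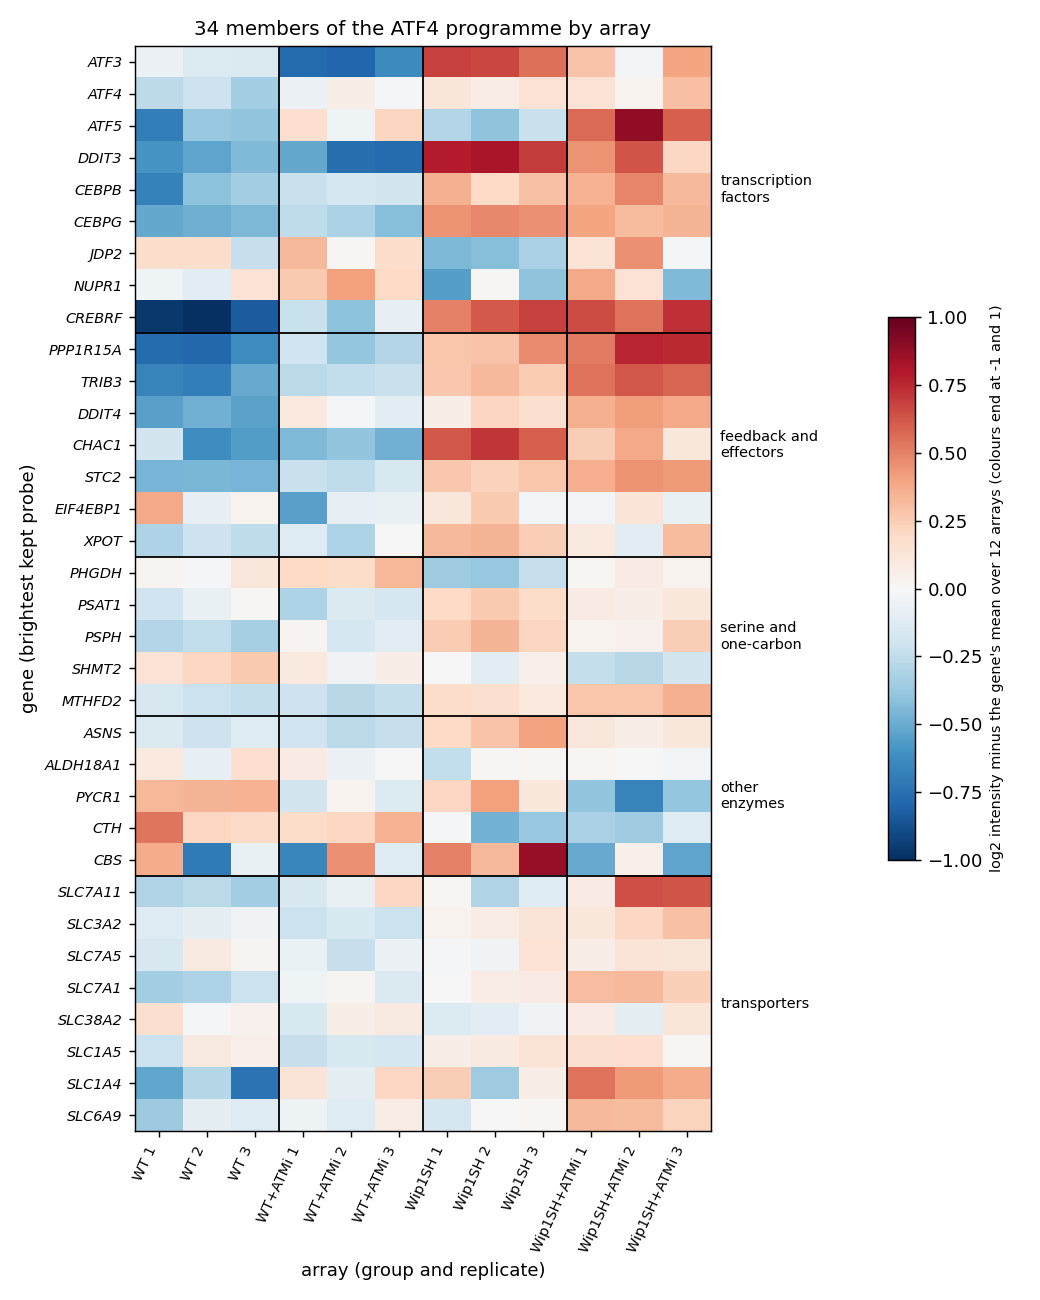
Normalized log2 intensity of the 34 tested members (rows, ordered by role) on the 12 arrays (columns), each minus that gene's mean over the 12 arrays; colours end at -1 and 1. Rows such as DDIT3, CEBPG and TRIB3 are blue on all 6 arrays without the hairpin and red on all 6 with it, whereas CTH is lower on the 6 hairpin arrays than on the other 6.

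The first question the design asks is what depletion of Wip1 did in untreated cells. Of 34 members, 18 rose and 4 fell in Wip1SH against WT, so 64.7% were called, beside 32.2% of all genes tested (16.8% higher, 15.4% lower). The median member differed by 0.35 on the log2 scale and the median gene by 0.01. CREBRF, DDIT3, CHAC1 and PPP1R15A rose at least 2-fold. The groups did not overlap for 23 members, 18 higher and 5 lower, beside 44.9% of all genes (23.6% higher, 21.3% lower). Stress effectors and transcription factors carried most of the rises, with 6 of 7 and 6 of 9 tested, the serine and one-carbon enzymes split into 3 higher and 2 lower of 5, and 6 of 8 transporters did not pass the test.

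ATF4 itself, measured by the brightest of its 3 probes, changed modestly. ATF4 read 13.99, 14.05 and 13.92 on the WT arrays, 14.19, 14.31 and 14.24 on WT+ATMi, 14.38, 14.33 and 14.40 on Wip1SH, and 14.40, 14.29 and 14.56 on Wip1SH+ATMi. The WT arrays were below the other 9 arrays, and the 2 untreated groups did not overlap. The rise with the hairpin was 0.38 ± 0.081 (adjusted p = 0.00476). A second probe moved alike, by 0.43, but the dimmest, at a mean of 7.25 in WT, moved by -0.36, and the mean of the 3 probes did not pass the test.

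DDIT3, the pro-apoptotic factor CHOP, separated the hairpin cells from the others. DDIT3 read 10.39, 10.45 and 10.54 on the WT arrays, 10.47, 10.22 and 10.21 on WT+ATMi, 11.77, 11.80 and 11.68 on Wip1SH, and 11.43, 11.61 and 11.19 on Wip1SH+ATMi. All 6 hairpin arrays exceeded all 6 arrays without it, and the Wip1SH arrays were above those of Wip1SH+ATMi. The rise in untreated cells was 1.29 ± 0.11 (adjusted p = 1.97e-05).

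CREBRF, a regulator of the CREB3 family of stress-activated factors, had the largest change of any member. CREBRF read 6.03, 5.78 and 6.16 on the WT arrays, 6.77, 6.59 and 6.91 on WT+ATMi, 7.50, 7.61 and 7.68 on Wip1SH, and 7.65, 7.54 and 7.72 on Wip1SH+ATMi. WT was lowest, WT+ATMi intermediate, and the 2 hairpin groups were highest and overlapped. It rose by 1.60 ± 0.11 (adjusted p = 6.63e-06), or 3.04-fold, with a second probe at 1.21.

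ATF3, a stress-induced factor that is itself a target of ATF4, also rose with the hairpin. ATF3 read 11.08, 11.001 and 10.996 on the WT arrays, 10.36, 10.34 and 10.50 on WT+ATMi, 11.82, 11.80 and 11.69 on Wip1SH, and 11.42, 11.11 and 11.54 on Wip1SH+ATMi. The 4 groups did not overlap, with WT+ATMi lowest and Wip1SH highest. The rise was 0.74 ± 0.10 (adjusted p = 0.000384). CEBPG, a dimer partner of ATF4, rose by 0.95 ± 0.069 (adjusted p = 7.52e-06) from 10.59 ± 0.033 (SD, n = 3) to 11.53 ± 0.017. CEBPB, whose products include activating and inhibitory C/EBP isoforms, rose by 0.76 ± 0.094 (adjusted p = 0.000184).

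Among the other factors, JDP2 fell. JDP2 read 7.43, 7.43 and 7.03 on the WT arrays, 7.58, 7.26 and 7.43 on WT+ATMi, 6.81, 6.83 and 6.93 on Wip1SH, and 7.39, 7.71 and 7.23 on Wip1SH+ATMi. The 3 Wip1SH arrays were below the other 9, which overlapped among themselves, and the change was -0.44 ± 0.14 (adjusted p = 0.032). JDP2 is a Jun-dimerizing repressor. ATF5, a relative of ATF4 translated under the same control, was 0.18 ± 0.12 (adjusted p = 0.253) and NUPR1, a stress-induced chromatin protein, -0.31 ± 0.19 (adjusted p = 0.237); neither passed the test.

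CHAC1, an enzyme that degrades glutathione, was among the strongest. CHAC1 read 7.42, 6.98 and 7.05 on the WT arrays, 7.16, 7.21 and 7.12 on WT+ATMi, 8.22, 8.32 and 8.20 on Wip1SH, and 7.85, 7.98 and 7.71 on Wip1SH+ATMi. WT and WT+ATMi overlapped, Wip1SH was highest, and Wip1SH+ATMi lay between. CHAC1 rose by 1.10 ± 0.11 (adjusted p = 5.74e-05).

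PPP1R15A, the subunit that directs protein phosphatase 1 to eIF2alpha and so ends the response, formed a ladder. PPP1R15A read 10.47, 10.45 and 10.61 on the WT arrays, 11.04, 10.85 and 10.94 on WT+ATMi, 11.51, 11.53 and 11.71 on Wip1SH, and 11.76, 11.998 and 11.98 on Wip1SH+ATMi. TRIB3, a pseudokinase that restrains ATF4, had the same order. TRIB3 read 10.85, 10.83 and 11.02 on the WT arrays, 11.25, 11.27 and 11.30 on WT+ATMi, 11.79, 11.84 and 11.78 on Wip1SH, and 12.06, 12.14 and 12.10 on Wip1SH+ATMi. For both genes the groups ran WT, WT+ATMi, Wip1SH, Wip1SH+ATMi with no overlap between neighbours. In untreated cells PPP1R15A differed by 1.07 ± 0.094 (adjusted p = 2.32e-05) and TRIB3 by 0.90 ± 0.072 (adjusted p = 1.35e-05).

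DDIT4, an inhibitor of mTORC1 signalling, rose as well. DDIT4 read 11.66, 11.72 and 11.67 on the WT arrays, 12.30, 12.19 and 12.10 on WT+ATMi, 12.26, 12.42 and 12.36 on Wip1SH, and 12.56, 12.62 and 12.58 on Wip1SH+ATMi. WT was lowest, Wip1SH+ATMi highest, and the groups with a single perturbation overlapped. Its hairpin change was 0.66 ± 0.075 (adjusted p = 0.000112). STC2, a secreted glycoprotein, rose by 0.72 ± 0.064 (adjusted p = 2.63e-05) and XPOT, the nuclear exporter of tRNA, by 0.56 ± 0.11 (adjusted p = 0.00276). EIF4EBP1, a translational repressor, was at 0.0028 ± 0.15 (adjusted p = 0.99), which did not pass.

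**Figure D2:**
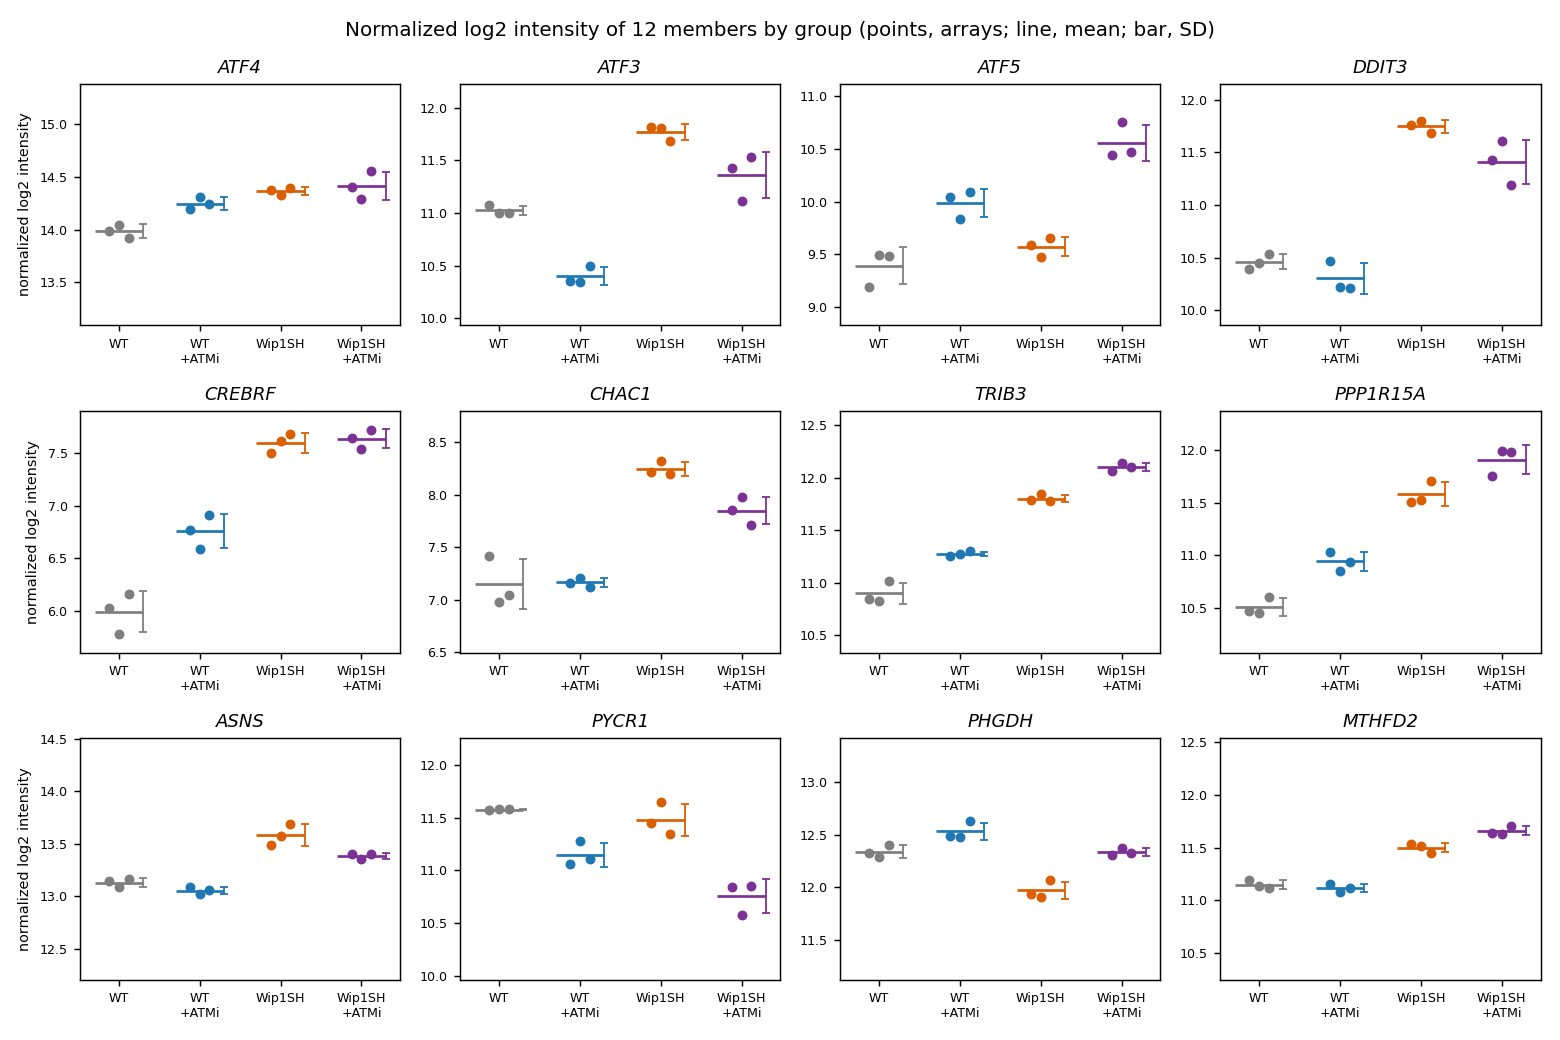
Normalized log2 intensity of 12 members in the 4 groups; points are arrays, lines group means and bars SD (n = 3), and each panel has its own vertical range. TRIB3 and PPP1R15A rise from WT through WT+ATMi and Wip1SH to Wip1SH+ATMi, DDIT3 and CHAC1 are highest in Wip1SH, and PYCR1 is lowest in Wip1SH+ATMi.

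The serine pathway did not move as 1 unit. PHGDH, the enzyme that commits a glycolytic intermediate to serine, fell. PHGDH read 12.32, 12.28 and 12.40 on the WT arrays, 12.49, 12.48 and 12.63 on WT+ATMi, 11.93, 11.91 and 12.07 on Wip1SH, and 12.30, 12.37 and 12.33 on Wip1SH+ATMi. The Wip1SH arrays were below the other 9, WT+ATMi was highest, and WT and Wip1SH+ATMi overlapped. The fall was -0.37 ± 0.075 (adjusted p = 0.00397). The next enzymes rose instead: PSAT1, the transaminase, by 0.30 ± 0.077 (adjusted p = 0.0122) and PSPH, the phosphatase that releases serine, by 0.56 ± 0.084 (adjusted p = 0.000596), with its second probe at 0.53.

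The mitochondrial one-carbon enzymes also split. SHMT2, which turns serine into glycine and a one-carbon unit, was lower on the arrays of every perturbed group than in WT. SHMT2 read 12.37, 12.43 and 12.49 on the WT arrays, 12.32, 12.19 and 12.29 on WT+ATMi, 12.22, 12.12 and 12.28 on Wip1SH, and 11.98, 11.95 and 12.04 on Wip1SH+ATMi. The WT arrays were above the other 9, Wip1SH+ATMi was lowest, and the groups with 1 perturbation overlapped. Its hairpin change was -0.22 ± 0.073 (adjusted p = 0.0361), but 0.012 when arrays were scaled to equal medians over all probes. MTHFD2, the following dehydrogenase and cyclohydrolase, rose by 0.35 ± 0.065 (adjusted p = 0.00225).

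ASNS, asparagine synthetase, is a classical amino acid response gene. ASNS read 13.15, 13.09 and 13.16 on the WT arrays, 13.09, 13.02 and 13.06 on WT+ATMi, 13.49, 13.58 and 13.69 on Wip1SH, and 13.41, 13.36 and 13.41 on Wip1SH+ATMi. All 6 hairpin arrays were above all 6 others, Wip1SH was above Wip1SH+ATMi, and WT overlapped WT+ATMi. ASNS rose by 0.45 ± 0.072 (adjusted p = 0.000844), with its second probe at 0.46. CTH, the enzyme that yields cysteine in transsulfuration, went the other way. CTH read 8.05, 7.73 and 7.71 on the WT arrays, 7.70, 7.73 and 7.87 on WT+ATMi, 7.50, 7.05 and 7.14 on Wip1SH, and 7.19, 7.16 and 7.39 on Wip1SH+ATMi. All 6 hairpin arrays were below the other 6, and the 2 groups within each set of 6 overlapped. CTH fell: the change was -0.60 ± 0.13 (adjusted p = 0.00515), and its other probes moved by -0.37 and -0.35.

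The proline enzymes did not pass the test, PYCR1 at -0.099 ± 0.10 (adjusted p = 0.493) and ALDH18A1 at -0.13 ± 0.093 (adjusted p = 0.303). CBS, the enzyme before CTH, had a wide spread, with SD of 0.28 to 0.55 within groups, and its difference of 0.70 ± 0.30 did not pass (adjusted p = 0.0982).

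Of the 8 transporters, SLC7A1 and SLC1A4 rose. SLC7A1, the carrier of arginine and lysine, rose by 0.34 ± 0.073 (adjusted p = 0.00483). SLC1A4, a carrier of alanine, serine and cysteine, was near background. SLC1A4 read 5.24, 5.48 and 5.03 on the WT arrays, 5.89, 5.67 and 5.97 on WT+ATMi, 6.01, 5.41 and 5.83 on Wip1SH, and 6.31, 6.19 and 6.14 on Wip1SH+ATMi. It was not above background on any WT array, was above it on 2 of 3 Wip1SH arrays, and Wip1SH+ATMi exceeded all other arrays. SLC1A4 met the detection filter through arrays of the perturbed groups alone. Its calls against WT, here and below, are therefore not independent of that filter. Its Wip1SH mean was 1.07-fold above the dimmest signal above background on the WT arrays. That mean includes Wip1SH 2, itself below background, so the ratio is not a strict lower bound, and the groups overlapped. The adjusted p of 0.0276 tests the fitted difference of 0.50 ± 0.15, not this ratio. The same holds for the adjusted p beside the fold bounds given below. SLC3A2, the shared heavy chain of several carriers, was at 0.17 ± 0.072 (adjusted p = 0.099) on its brighter probe and at 0.46 on the other. SLC7A5, SLC38A2, SLC1A5 and SLC6A9, carriers of large neutral amino acids, small neutral amino acids, glutamine and glycine, lay between -0.16 (SLC38A2) and 0.14 (SLC6A9) and none passed. SLC7A11, the cystine and glutamate exchanger, was not above background in either untreated group.

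Leaving out single arrays ended 3 of the 22 calls: JDP2 without WT 1, WT 2, Wip1SH 1, Wip1SH 2 or Wip1SH 3 (log2 -0.48 to -0.37, adjusted p = 0.0522 to 0.0992), SLC1A4 without WT 1, WT 3, Wip1SH 1 or Wip1SH 3 (adjusted p = 0.0615 to 0.109), and SHMT2 without WT 2, WT 3, Wip1SH 1 or Wip1SH 2 (log2 -0.23 to -0.18, adjusted p = 0.0764 to 0.124). The number of members called lower was then 2 without WT 2, Wip1SH 1 or Wip1SH 2. With array medians equalized over all probes the split was 23 higher and 0 lower, and the median of all genes moved from 0.01 to 0.24, while 25 members lay above that median under either scaling. With the count of probes above background entered as a covariate, 13 of the 22 calls were kept. That count did not overlap between WT and Wip1SH, so the fit cannot separate array brightness from the hairpin.

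The second comparison asks about depletion in the presence of the inhibitor, Wip1SH+ATMi against WT+ATMi. It shares no array with the first, but each gene's variance was fitted jointly over all arrays. Both comparisons also rest on hairpin cells without a control hairpin, so their shared calls are not an independent replication. Again 64.7% of members were called, 19 higher and 3 lower, beside 21.2% of all genes (10.5% higher, 10.7% lower). The median member differed by 0.33 and the median gene by 0.0074. The groups did not overlap for 25 members, 21 higher and 4 lower, beside 39.6% of all genes (20.1% and 19.5%). DDIT3 rose at least 2-fold. Both hairpin comparisons called 14 members higher, 77.8% of the 18 and 73.7% of the 19, and both called CTH and SHMT2 lower; no member was called in opposite directions. The signs agreed for 31 of 34, and the fold changes correlated at r = 0.82 across members, which are not independent replicates.

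The factors and effectors again moved furthest. DDIT3 differed by 1.11 ± 0.11 (adjusted p = 5.93e-05), ATF3 by 0.96 ± 0.10 (adjusted p = 0.000106), CREBRF by 0.88 ± 0.11 (adjusted p = 0.000326) and CEBPG by 0.69 ± 0.069 (adjusted p = 6.73e-05). PPP1R15A was higher by 0.97 ± 0.094 (adjusted p = 5.04e-05), TRIB3 by 0.83 ± 0.072 (adjusted p = 2.68e-05) and CHAC1 by 0.68 ± 0.11 (adjusted p = 0.0015). CEBPB, STC2 and DDIT4 rose by 0.58, 0.63 and 0.39. ATF5 passed here, at 0.57 ± 0.12 (adjusted p = 0.00521). ATF4 was at 0.17 ± 0.081 (adjusted p = 0.166), XPOT at 0.25 and EIF4EBP1 at 0.24, and these did not pass; neither did JDP2 (0.020) or NUPR1 (-0.26).

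Among enzymes, MTHFD2 rose by 0.55 ± 0.065 (adjusted p = 0.000214), ASNS by 0.33 ± 0.072 (adjusted p = 0.00694) and PSAT1 by 0.29 ± 0.077 (adjusted p = 0.0204). The 3 that fell were CTH at -0.52 ± 0.13 (adjusted p = 0.0149), PYCR1, the last enzyme of proline synthesis, at -0.39 ± 0.10 (adjusted p = 0.0192) and SHMT2 at -0.28 ± 0.073 (adjusted p = 0.0201). The other kept probes moved by -0.14 and -0.36 for CTH and by -0.36 and -0.25 for PYCR1. PHGDH (-0.20), PSPH (0.20), ALDH18A1 (-0.0094) and CBS (-0.22) did not pass.

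Of 8 transporters, 5 were called higher: SLC3A2 rose by 0.39 ± 0.072 (adjusted p = 0.00274), SLC7A1 by 0.34 ± 0.073 (adjusted p = 0.00641), SLC6A9 by 0.32 ± 0.093 (adjusted p = 0.0281) and SLC1A5 by 0.30 ± 0.089 (adjusted p = 0.0343). The fifth was SLC7A11, which was above background on 1 of 3 WT+ATMi and 2 of 3 Wip1SH+ATMi arrays and on no other array, so it met the detection filter through these 3 arrays alone, and its fitted difference of 0.45 ± 0.15 (adjusted p = 0.0493) rests partly on arrays below background. SLC7A11 read 5.04, 5.07 and 4.998 on the WT arrays, 5.19, 5.27 and 5.55 on WT+ATMi, 5.36, 5.04 and 5.21 on Wip1SH, and 5.42, 5.98 and 5.97 on Wip1SH+ATMi. Its 2 inhibitor groups overlapped, and the WT arrays were all below every inhibitor array. SLC1A4 (0.37), SLC7A5 (0.22) and SLC38A2 (0.042) did not pass.

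**Figure D3:**
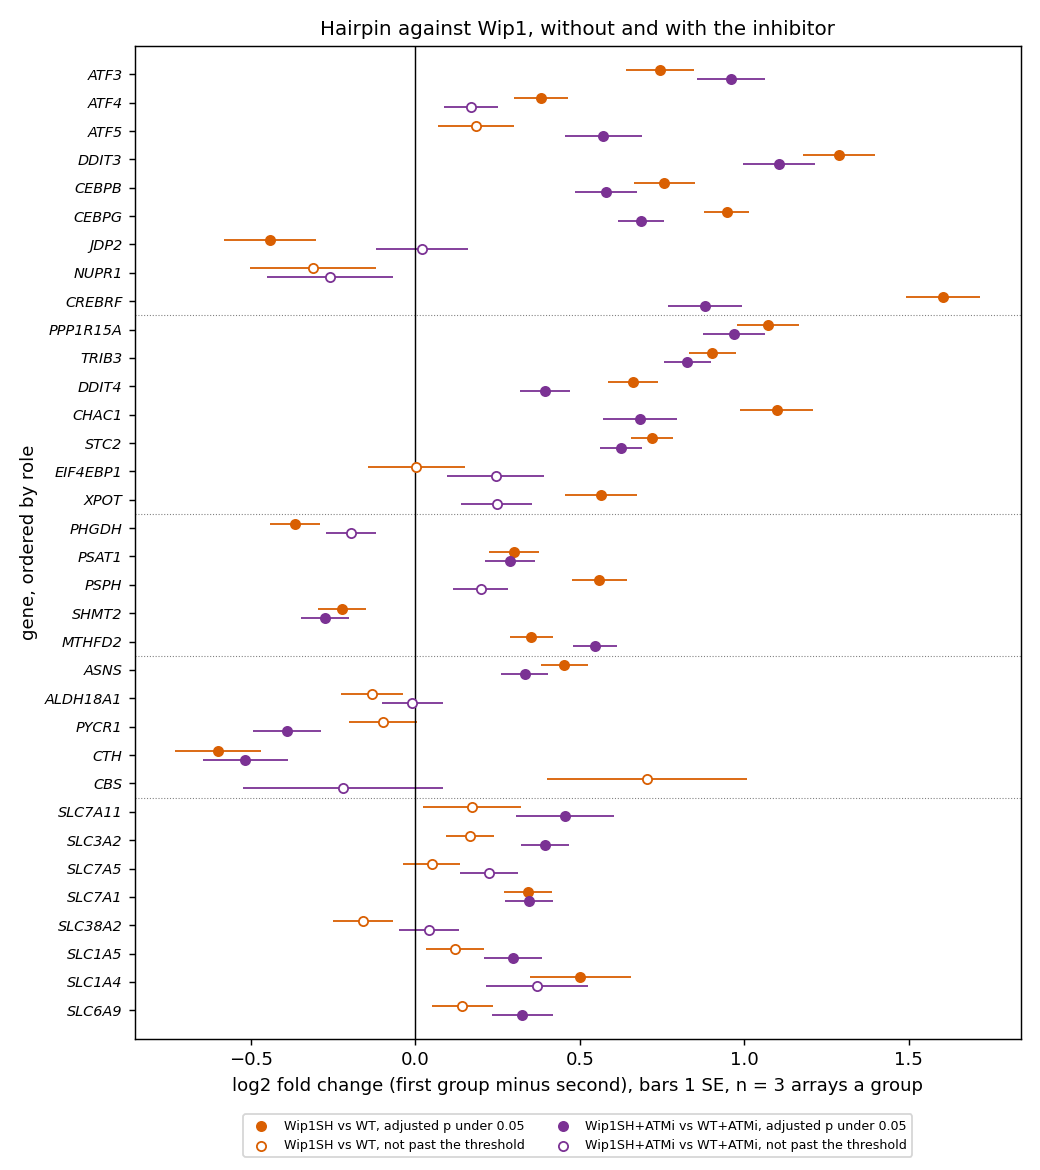
Log2 fold change of each tested member (bars 1 SE, n = 3 arrays a group) for the hairpin without the inhibitor (orange, Wip1SH vs WT) and with it (purple, Wip1SH+ATMi vs WT+ATMi); filled points passed an adjusted p under 0.05. Most transcription factors and effectors lie right of 0 in both, CTH and SHMT2 lie left of 0 in both, and for SLC7A11 and SLC1A4 the plotted values rest partly on arrays below background.

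Single arrays ended 7 of these 22 calls. They were lost for SLC7A11 without any 1 of 10 arrays, that is all but WT+ATMi 3 and Wip1SH+ATMi 1 (adjusted p = 0.0516 to 0.16), for SLC1A5 without WT+ATMi 1, WT+ATMi 2, WT+ATMi 3, Wip1SH+ATMi 1 or Wip1SH+ATMi 2 (log2 0.27 to 0.31, adjusted p = 0.0654 to 0.0988) and for SLC6A9 without WT+ATMi 1, WT+ATMi 2, Wip1SH+ATMi 1 or Wip1SH+ATMi 2 (log2 0.28 to 0.32, adjusted p = 0.0713 to 0.0985). The same held for SHMT2 without WT+ATMi 1, WT+ATMi 3, Wip1SH+ATMi 1 or Wip1SH+ATMi 2 (log2 -0.27 to -0.25, adjusted p = 0.0539 to 0.0698), for PSAT1 without WT+ATMi 1, Wip1SH+ATMi 1 or Wip1SH+ATMi 3 (log2 0.24 to 0.29, adjusted p = 0.0527 to 0.0795), for PYCR1 without WT+ATMi 2 or Wip1SH+ATMi 2 (log2 -0.33 to -0.30, adjusted p = 0.0675 to 0.0753) and for CTH without WT+ATMi 3 or Wip1SH+ATMi 2 (log2 -0.47 to -0.47, adjusted p = 0.0522 to 0.059). Members called lower numbered 1 without WT+ATMi 3 and 0 without Wip1SH+ATMi 2. With medians equalized over all probes the split was 11 higher and 0 lower, at a median of all genes of -0.0099. With the count of probes above background entered as a covariate, 15 of the 22 calls were kept. That count overlapped in part between the groups (18723 to 19654 in WT+ATMi, 19505 to 20408 in Wip1SH+ATMi).

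The third comparison asks what 3 days of ATM inhibitor did in parental cells. In WT+ATMi against WT, 10 members rose and 2 fell, 35.3% of 34 beside 25.5% of all genes (15.4% higher, 10% lower). The median member differed by 0.12 and the median gene by 0.034, and no member rose or fell 2-fold. The summed epithelial markers were lower on all inhibitor arrays, in either inhibitor comparison, and their part in these results was not tested. The groups did not overlap for 19 members, 15 higher and 4 lower, beside 41.6% of all genes (24.4% and 17.2%). Factors and effectors held 8 of the 10 rises, no serine or one-carbon enzyme passed, and DDIT3, CHAC1 and ASNS did not pass, at -0.16 ± 0.11, 0.018 ± 0.11 and -0.076 ± 0.072.

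CREBRF rose by 0.77 ± 0.11 (adjusted p = 0.00082), DDIT4 by 0.51 ± 0.075 (adjusted p = 0.000821) and PPP1R15A by 0.43 ± 0.094 (adjusted p = 0.00655). TRIB3 rose by 0.38 ± 0.072 (adjusted p = 0.00335). ATF5 had the second largest rise among the factors. ATF5 read 9.18, 9.50 and 9.48 on the WT arrays, 10.04, 9.83 and 10.09 on WT+ATMi, 9.59, 9.48 and 9.66 on Wip1SH, and 10.44, 10.76 and 10.47 on Wip1SH+ATMi. All 6 arrays with the inhibitor exceeded all 6 without it, and the untreated groups overlapped. The rise was 0.60 ± 0.12 (adjusted p = 0.00383). ATF3 was the factor that fell, at -0.63 ± 0.10 (adjusted p = 0.00151), with all 3 WT+ATMi arrays below all 3 WT arrays. ATF4 rose by 0.26 ± 0.081 (adjusted p = 0.0341), CEBPB by 0.28 ± 0.094 (adjusted p = 0.0463) and STC2 by 0.25 ± 0.064 (adjusted p = 0.0156).

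PYCR1 was the enzyme that fell with the inhibitor. PYCR1 read 11.57, 11.58 and 11.59 on the WT arrays, 11.06, 11.28 and 11.11 on WT+ATMi, 11.45, 11.65 and 11.34 on Wip1SH, and 10.84, 10.57 and 10.85 on Wip1SH+ATMi. Wip1SH+ATMi was lowest and WT+ATMi next, without overlap, whereas WT and Wip1SH overlapped. Its change in parental cells was -0.43 ± 0.10 (adjusted p = 0.0105), but 0.015 with array medians equalized over all probes, and its other 2 kept probes gave 0.03 and -0.32. The remaining 9 enzymes did not pass, from -0.16 for SHMT2 to 0.20 for PSPH. SLC7A1 rose by 0.24 ± 0.073 (adjusted p = 0.0326), and SLC1A4 was at least 1.14-fold higher (adjusted p = 0.0159). SLC1A4 met the detection filter without any WT array, so this call is not independent of that filter. The other transporters lay between -0.16 for SLC1A5 and 0.16 for SLC6A9 where both groups were above background, and none passed.

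Single arrays ended 5 of the 12 calls, namely ATF4 without WT 1, WT 3, WT+ATMi 1, WT+ATMi 2 or WT+ATMi 3 (log2 0.23 to 0.29, adjusted p = 0.0552 to 0.0995), CEBPB without any 1 of 10 arrays, that is all but WT 3 and Wip1SH+ATMi 2 (log2 0.18 to 0.31, adjusted p = 0.0523 to 0.157), SLC7A1 without WT 1, WT 2, WT+ATMi 1 or WT+ATMi 2 (log2 0.20 to 0.24, adjusted p = 0.0816 to 0.103), SLC1A4 without WT 3, WT+ATMi 1 or WT+ATMi 3 (adjusted p = 0.0519 to 0.0621) and STC2 without WT+ATMi 3 (log2 0.22, adjusted p = 0.0621). Members called higher numbered 6 without WT+ATMi 1 or WT+ATMi 3. The split was 25 higher and 0 lower with medians equalized over all probes, which put the median of all genes at 0.43, and 6 higher and 3 lower with medians equalized over the tested probes. With the count of probes above background entered as a covariate none of the 12 calls was kept. That count did not overlap between the groups (17650 to 17929 in WT, 18723 to 19654 in WT+ATMi). The fit therefore cannot separate array brightness from the inhibitor.

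The fourth comparison asks the same of hairpin cells, Wip1SH+ATMi against Wip1SH. Here 10 members rose and 4 fell, 41.2% beside 23.3% of all genes (14.3% higher, 9.02% lower), with a median member of 0.072 and a median gene of 0.021. The groups did not overlap for 21 members, 12 higher and 9 lower, beside 40.8% of all genes (23.5% and 17.3%). Both inhibitor comparisons called ATF5, DDIT4, PPP1R15A, SLC1A4, SLC7A1 and TRIB3 higher (60.0% of either list of 10) and ATF3 and PYCR1 lower. They share no array, but each gene's variance was fitted jointly over all arrays, so these calls are not independent. The signs agreed for 22 of 34 members, and the fold changes correlated at r = 0.62 across members.

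ATF5 rose by 0.99 ± 0.12 (adjusted p = 0.000265) and JDP2 by 0.59 ± 0.14 (adjusted p = 0.0116), while CREBRF was at 0.041 ± 0.11 (adjusted p = 0.836) and ATF4 at 0.050 ± 0.081 (adjusted p = 0.713). PPP1R15A rose by 0.33 ± 0.094 (adjusted p = 0.0259), TRIB3 by 0.30 ± 0.072 (adjusted p = 0.0116) and DDIT4 by 0.24 ± 0.075 (adjusted p = 0.0379). The members that fell were PYCR1, at -0.72 ± 0.10 (adjusted p = 0.000711), ATF3, at -0.41 ± 0.10 (adjusted p = 0.0147), CHAC1, at -0.40 ± 0.11 (adjusted p = 0.0245), and DDIT3, at -0.34 ± 0.11 (adjusted p = 0.0428). The other kept PYCR1 probes moved by -0.26 and -0.53. CHAC1 and DDIT3 still stood above both groups without the hairpin on every array.

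PHGDH was the serine enzyme that rose, by 0.36 ± 0.075 (adjusted p = 0.00587). ASNS (-0.20 ± 0.072 (adjusted p = 0.0676)) and SHMT2 (-0.21 ± 0.073 (adjusted p = 0.0554)) did not pass. CBS had the widest difference of all enzymes, -0.89 ± 0.30 (adjusted p = 0.0534), and did not pass either. Of the transporters, SLC7A1 rose by 0.24 ± 0.073 (adjusted p = 0.0335), SLC6A9 by 0.34 ± 0.093 (adjusted p = 0.0213) and SLC1A4, above background on 2 of 3 Wip1SH arrays, by 0.46 ± 0.15 (adjusted p = 0.0495). SLC7A11 was also called, with a fitted difference of 0.58 ± 0.15 (adjusted p = 0.0159). No Wip1SH array and 2 of 3 Wip1SH+ATMi arrays were above background. Its Wip1SH+ATMi mean was 1.19-fold above the dimmest signal above background on the Wip1SH arrays, which is not a strict lower bound. SLC7A11 is counted among the 10 that rose, but it met the detection filter through inhibitor arrays alone. Its call is therefore not independent of that filter.

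**Figure D4:**
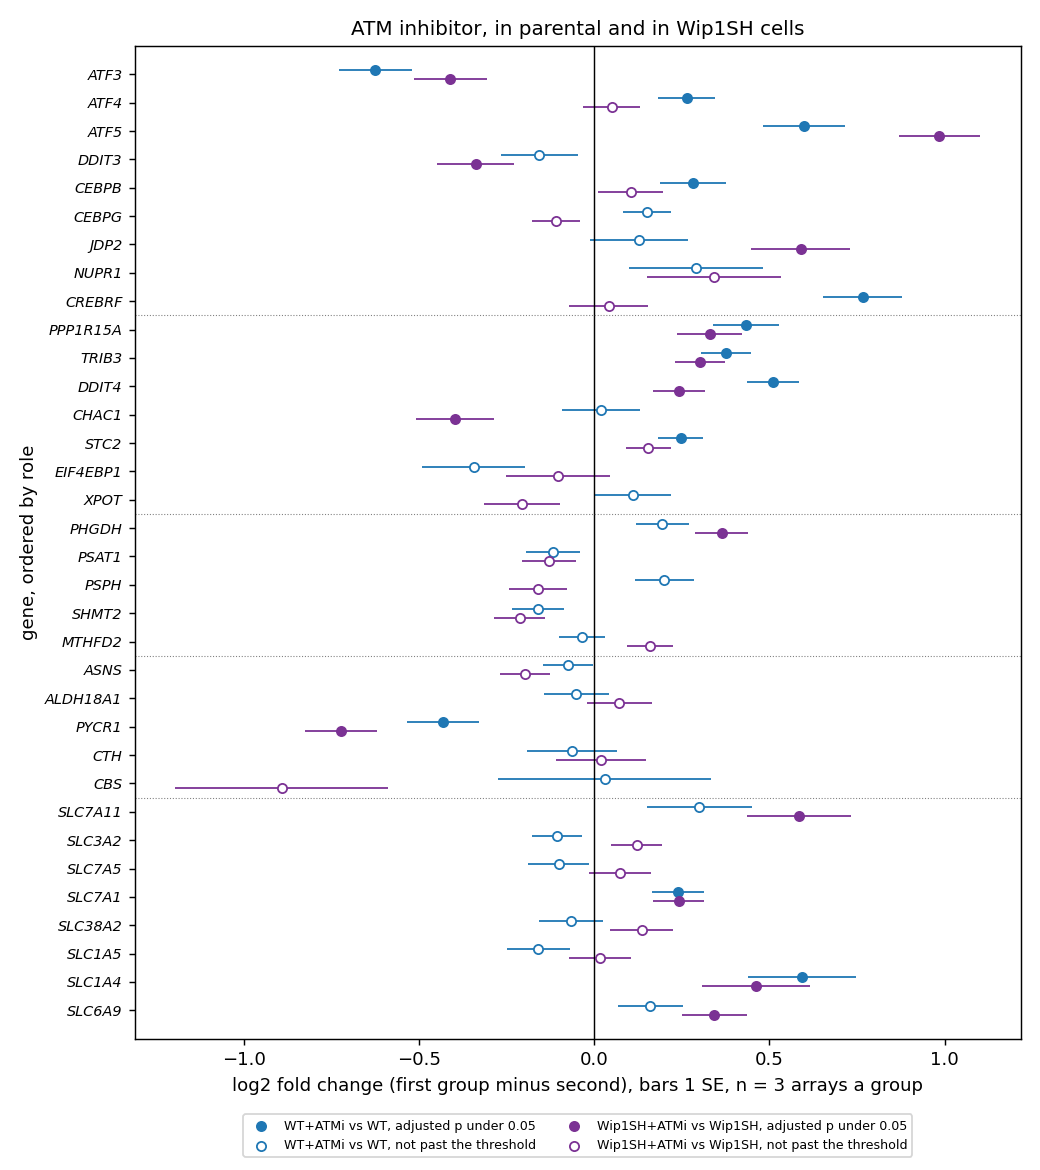
Log2 fold change of each tested member (bars 1 SE, n = 3 arrays a group) for the ATM inhibitor in parental cells (blue, WT+ATMi vs WT) and in hairpin cells (purple, Wip1SH+ATMi vs Wip1SH); filled points passed an adjusted p under 0.05. ATF5 lies right of 0 and ATF3 and PYCR1 left of 0 in both, CREBRF is right of 0 in parental cells and near 0 in hairpin cells, and for SLC7A11 and SLC1A4 the plotted values rest partly on arrays below background.

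Single arrays ended 8 of these 14 calls: SLC1A4 without any 1 of 9 arrays, that is all but WT 2, WT 3 and Wip1SH 1 (adjusted p = 0.0517 to 0.178), DDIT3 without any 1 of 8 arrays, that is all but WT 1, WT 3, WT+ATMi 1 and Wip1SH+ATMi 2 (log2 -0.37 to -0.23, adjusted p = 0.0512 to 0.152), and DDIT4 without Wip1SH 1, Wip1SH 2, Wip1SH 3, Wip1SH+ATMi 1, Wip1SH+ATMi 2 or Wip1SH+ATMi 3 (log2 0.20 to 0.28, adjusted p = 0.0501 to 0.132). Likewise lost were SLC7A1 without Wip1SH 1, Wip1SH 2, Wip1SH 3, Wip1SH+ATMi 1 or Wip1SH+ATMi 2 (log2 0.21 to 0.26, adjusted p = 0.0608 to 0.11), PPP1R15A without Wip1SH 1, Wip1SH 2, Wip1SH+ATMi 2 or Wip1SH+ATMi 3 (log2 0.29 to 0.30, adjusted p = 0.0832 to 0.0869) and CHAC1 without Wip1SH 1, Wip1SH 2, Wip1SH+ATMi 1 or Wip1SH+ATMi 3 (log2 -0.41 to -0.33, adjusted p = 0.0543 to 0.0877). The last pair were SLC6A9 without Wip1SH 1, Wip1SH+ATMi 1 or Wip1SH+ATMi 2 (log2 0.29 to 0.33, adjusted p = 0.0607 to 0.0815) and SLC7A11 without Wip1SH 2, Wip1SH+ATMi 2 or Wip1SH+ATMi 3 (adjusted p = 0.0612 to 0.064). Members called higher numbered 6 without Wip1SH 1 or Wip1SH+ATMi 1, 5 without Wip1SH 2 and 4 without Wip1SH+ATMi 2, and members called lower 2 without Wip1SH 1, Wip1SH 2, Wip1SH+ATMi 1 or Wip1SH+ATMi 3. The split was 10 higher and 2 lower with medians equalized over all probes, 5 and 6 over the tested probes, and 9 and 6 with no background correction. None of the 14 calls was kept with the count of probes above background as a covariate. That count did not overlap between Wip1SH and Wip1SH+ATMi either, so brightness and inhibitor cannot be separated by it.

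Both perturbations together, Wip1SH+ATMi against WT, gave 21 members higher and 3 lower, 70.6% beside 40.7% of all genes (23.5% higher, 17.1% lower). The median member differed by 0.38 and the median gene by 0.039. The groups did not overlap for 25 members, 22 higher and 3 lower, beside 49.5% of all genes (28.4% and 21.1%). CREBRF, PPP1R15A, TRIB3 and ATF5 rose at least 2-fold, by 1.65 ± 0.11 (adjusted p = 2.57e-06), 1.40 ± 0.094 (adjusted p = 2.3e-06), 1.20 ± 0.072 (adjusted p = 7.71e-07) and 1.17 ± 0.12 (adjusted p = 2.45e-05). This comparison shares its arrays with those above and adds no independent evidence to them.

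DDIT3 rose by 0.95 ± 0.11 (adjusted p = 6.05e-05), ASNS by 0.26 ± 0.072 (adjusted p = 0.0136) and DDIT4 by 0.90 ± 0.075 (adjusted p = 8.37e-06). ATF4 rose by 0.43 ± 0.081 (adjusted p = 0.00146), but its mean over 3 probes did not pass. CEBPB, CEBPG, STC2, CHAC1, XPOT and ATF3 rose by 0.86, 0.84, 0.87, 0.70, 0.36 and 0.33. The members that fell were PYCR1, at -0.82 ± 0.10 (adjusted p = 0.0001), CTH, at -0.58 ± 0.13 (adjusted p = 0.00398), and SHMT2, at -0.44 ± 0.073 (adjusted p = 0.000695), with MTHFD2 and PSPH rising by 0.51 and 0.40. The other kept probes moved less, by -0.33 and -0.57 for PYCR1 and by -0.09 and -0.46 for CTH. PHGDH, which had fallen with the hairpin alone, was at -0.0026 ± 0.075 (adjusted p = 0.983).

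Of 8 transporters 5 rose, SLC7A1 by 0.58 ± 0.073 (adjusted p = 0.000101), SLC6A9 by 0.48 ± 0.093 (adjusted p = 0.00164) and SLC3A2 by 0.29 ± 0.072 (adjusted p = 0.00775). SLC1A4 was at least 1.47-fold higher (adjusted p = 0.000523), as it was not above background in WT. It met the detection filter without any WT array, so its call is not independent of that filter. SLC7A11, not above background in WT either, was called too (adjusted p = 0.00193). Its Wip1SH+ATMi mean was 1.10-fold above the dimmest signal above background on the WT arrays. That mean includes Wip1SH+ATMi 1, itself below background, so the ratio is not a strict lower bound. As SLC7A11 met the detection filter through inhibitor arrays alone, its call is not independent of that filter. SLC7A5, SLC38A2 and SLC1A5 did not pass. The call was lost for XPOT without WT 1 or Wip1SH+ATMi 3 (log2 0.25 to 0.33, adjusted p = 0.0606 to 0.0875) and for ATF3 without WT 2, WT 3, Wip1SH+ATMi 1 or Wip1SH+ATMi 3 (log2 0.24 to 0.32, adjusted p = 0.0578 to 0.0952). With the count of probes above background as a covariate, 1 of the 24 calls was kept, and XPOT stood at -0.14. The call of PPM1D, the target of the hairpin, at -1.55 in the main fit, was lost with it too. The count did not overlap between WT and Wip1SH+ATMi.

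Whether the inhibitor acted differently in hairpin and parental cells was tested as an interaction. CREBRF was called among 34 members (2.94%, beside 3.11% of all genes, 1.9% positive and 1.21% negative), and its interaction was -0.73 ± 0.16 (adjusted p = 0.0319): its inhibitor change was 0.77 in parental cells and 0.041 in hairpin cells. The call was lost for CREBRF without any 1 of 10 arrays, that is all but WT 3 and WT+ATMi 2 (log2 -0.77 to -0.62, adjusted p = 0.0523 to 0.0849). The median SE of a member's interaction was 0.13 on the log2 scale, which sets how small a difference between the 2 cell states 3 arrays a group could show. CBS, at -0.92 ± 0.43, JDP2, at 0.46 ± 0.20, CHAC1, at -0.42 ± 0.16, and ATF5, at 0.39 ± 0.17, did not pass (adjusted p = 0.28, 0.238, 0.183 and 0.233).

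For 8 members there were several kept probes, 11 of them besides those tested. Of 31 changes in these probes that belonged to a called result, 4 had the opposite sign, 3 of them from the dimmest ATF4 probe and 1 from PYCR1. The dim ATF4 probe moved by -0.36, -0.26 and -0.25 in Wip1SH, WT+ATMi and Wip1SH+ATMi against WT, where the tested probe moved by 0.38, 0.26 and 0.43 and the third by 0.43, 0.22 and 0.36. Which transcripts each probe reads was not tested.

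Genes around the members give the wider pathway. The kinases and regulators of eIF2alpha lie upstream of ATF4. Of 18 tested, 0 rose and 2 fell in Wip1SH against WT, 11.1% beside the 32.2% of all genes (16.8% higher, 15.4% lower). These were GCN1, the activator of the uncharged-tRNA sensor, at -0.48 ± 0.074 (adjusted p = 0.000698), and PPP1CA, a catalytic subunit of protein phosphatase 1, at -0.45 ± 0.084 (adjusted p = 0.00214). Of 11 tested tRNA synthetases counted among ATF4 targets, 4 rose and 1 fell (45.5% called). AARS1, GARS1 and SARS1, for alanine, glycine and serine, rose by 0.36 ± 0.072 (adjusted p = 0.00359), 0.32 ± 0.072 (adjusted p = 0.00683) and 0.27 ± 0.076 (adjusted p = 0.018). IARS1, for isoleucine, was at -1.05 ± 0.089 (adjusted p = 1.97e-05), opposite in direction. Of 13 tested genes of the ATF6 and XBP1 arm, 3 rose (ATF6 0.69, XBP1 0.60, DNAJB9 0.58) and 2 fell (CRELD2 -0.61, SDF2L1 -0.37), 38.5% in all and near the share of all genes. Of 10 further stress genes listed as downstream of ATF4, 6 rose and 1 fell (70.0% called). Whether they depend on ATF4 in these cells was not tested. The rises were led by the leucine sensor SESN2 at 0.90, the autophagy protein MAP1LC3B at 0.86 and KLHL24 at 0.81. The mitochondrial protease LONP1 was at -0.35. Of these 19 calls, 3 were lost when 1 array was left out: SARS1 without WT 2 or Wip1SH 3 (log2 0.23 to 0.23, adjusted p = 0.0632 to 0.069), TARS1 without WT 2, WT 3, WT+ATMi 1, WT+ATMi 3, Wip1SH 1 or Wip1SH 3 (log2 0.25 to 0.32, adjusted p = 0.0509 to 0.129) and LONP1 without Wip1SH 1 or Wip1SH 3 (log2 -0.31 to -0.29, adjusted p = 0.0522 to 0.0569).

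With the inhibitor present, the hairpin gave the same split for 2 of these lists, beside 21.2% of all genes called (10.5% higher, 10.7% lower). Of the regulators 0 rose and 2 fell (11.1%, PPP1CA -0.50, GCN1 -0.27), of the synthetases 3 rose and 1 fell (36.4%, WARS1 0.46, SARS1 0.42, GARS1 0.33, and IARS1 -1.57), and of the ATF6 and XBP1 arm 3 rose and 2 fell (38.5%, DNAJB9 0.52, XBP1 0.48, ATF6 0.42, and CALR -0.50, CRELD2 -0.28). Of the further stress genes 5 rose and 1 fell (60.0%, MAP1LC3B 0.94, VEGFA 0.45, KLHL24 0.35, and SQSTM1 -0.21). Leaving out single arrays ended 7 of the 17 calls: CRELD2 without any 1 of 11 arrays, that is all but WT+ATMi 2 (log2 -0.32 to -0.21, adjusted p = 0.0503 to 0.164), SQSTM1 without any 1 of the 12 arrays (log2 -0.24 to -0.17, adjusted p = 0.0557 to 0.158), SESN2 without any 1 of 7 arrays, that is all but WT 2, WT 3, WT+ATMi 1, Wip1SH 1 and Wip1SH 2 (log2 0.32 to 0.41, adjusted p = 0.0557 to 0.151) and GCN1 without WT+ATMi 1, WT+ATMi 2, Wip1SH+ATMi 1 or Wip1SH+ATMi 3 (log2 -0.27 to -0.22, adjusted p = 0.0586 to 0.0898). The others were KLHL24 without WT+ATMi 2, Wip1SH+ATMi 2 or Wip1SH+ATMi 3 (log2 0.29 to 0.34, adjusted p = 0.0554 to 0.0806), PCK2 without WT+ATMi 2, WT+ATMi 3, Wip1SH+ATMi 1 or Wip1SH+ATMi 3 (log2 0.28 to 0.34, adjusted p = 0.072 to 0.0983) and VEGFA without WT+ATMi 3 or Wip1SH+ATMi 2 (log2 0.33 to 0.44, adjusted p = 0.0542 to 0.0556).

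With the inhibitor in parental cells, where 25.5% of all genes were called, 5 of the 10 further stress genes rose and 1 fell (60.0% called). KLHL24 rose by 1.07 ± 0.095 (adjusted p = 4.74e-05), GDF15, a secreted stress cytokine, by 0.89 ± 0.096 (adjusted p = 0.000147) and SQSTM1, an autophagy receptor, by 0.47 ± 0.069 (adjusted p = 0.000805), and LONP1 was at -0.35. The regulators gave 0 higher and 1 lower (5.56%, EIF2B2 -0.35), the synthetases 1 and 2 (27.3%, AARS1 0.22, WARS1 -0.31, GARS1 -0.23), and the ATF6 and XBP1 arm 2 and 1 (23.1%, XBP1 0.31, DNAJB9 0.29, CALR -0.60). The shares of the synthetases and of the ATF6 and XBP1 arm were near that of all genes. Leaving out single arrays ended 8 of the 13 calls: AARS1 without any 1 of 9 arrays, that is all but Wip1SH+ATMi 1, Wip1SH+ATMi 2 and Wip1SH+ATMi 3 (log2 0.20 to 0.25, adjusted p = 0.0504 to 0.123), GARS1 without WT 1, WT 2, WT 3, WT+ATMi 1, WT+ATMi 2 or WT+ATMi 3 (log2 -0.26 to -0.18, adjusted p = 0.0512 to 0.118), WARS1 without WT+ATMi 1 or WT+ATMi 2 (log2 -0.27 to -0.27, adjusted p = 0.0533 to 0.0617) and EIF2B2 without WT 3, WT+ATMi 1 or WT+ATMi 3 (log2 -0.35 to -0.29, adjusted p = 0.0535 to 0.0703). The others were DNAJB9 without WT 1, WT 3, WT+ATMi 1 or WT+ATMi 3 (log2 0.23 to 0.30, adjusted p = 0.0558 to 0.0994), XBP1 without WT 2, WT+ATMi 2 or WT+ATMi 3 (log2 0.26 to 0.32, adjusted p = 0.0511 to 0.0695), LONP1 without WT 2 or WT+ATMi 1 (log2 -0.32 to -0.29, adjusted p = 0.0526 to 0.0715) and PCK2 without WT 1 or WT+ATMi 1 (log2 0.33 to 0.33, adjusted p = 0.0569 to 0.0657).

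In hairpin cells, where 23.3% of all genes were called with the inhibitor, 1 regulator rose and 2 fell (16.7%, EIF2AK4 0.29, EIF2B2 -0.39, PPP1CB -0.42), and 1 synthetase fell (9.09%, IARS1 -0.55). In the ATF6 and XBP1 arm 3 rose (EDEM1 0.64, SDF2L1 0.25, CRELD2 0.27) and 3 fell (CALR -0.80, ATF6 -0.25, DNAJC3 -0.40), 46.2% in all. Of the further stress genes 4 rose, among them KLHL24 (0.62), VEGFA (0.63) and SQSTM1 (0.37), and SESN2 fell (-0.54), 50% in all. Leaving out single arrays ended 8 of the 15 calls: CRELD2 without any 1 of 10 arrays, that is all but WT+ATMi 2 and Wip1SH+ATMi 3 (log2 0.23 to 0.28, adjusted p = 0.0504 to 0.14), SDF2L1 without WT+ATMi 3, Wip1SH 1, Wip1SH 3, Wip1SH+ATMi 1 or Wip1SH+ATMi 2 (log2 0.19 to 0.27, adjusted p = 0.0537 to 0.126), DNAJC3 without Wip1SH 1, Wip1SH 2, Wip1SH 3, Wip1SH+ATMi 1 or Wip1SH+ATMi 2 (log2 -0.44 to -0.30, adjusted p = 0.052 to 0.121) and EIF2AK4 without Wip1SH 2, Wip1SH 3, Wip1SH+ATMi 1 or Wip1SH+ATMi 3 (log2 0.24 to 0.30, adjusted p = 0.0587 to 0.0949). The others were PPP1CB without Wip1SH 2, Wip1SH 3, Wip1SH+ATMi 2 or Wip1SH+ATMi 3 (log2 -0.43 to -0.38, adjusted p = 0.0537 to 0.0785), ATF6 without Wip1SH 2, Wip1SH 3, Wip1SH+ATMi 2 or Wip1SH+ATMi 3 (log2 -0.26 to -0.20, adjusted p = 0.0591 to 0.114), EIF2B2 without Wip1SH 3, Wip1SH+ATMi 2 or Wip1SH+ATMi 3 (log2 -0.35 to -0.33, adjusted p = 0.0511 to 0.0526) and PCK2 without Wip1SH 2, Wip1SH+ATMi 1 or Wip1SH+ATMi 3 (log2 0.24 to 0.31, adjusted p = 0.0842 to 0.119).

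Both perturbations against neither, where 40.7% of all genes were called, gave 1 regulator higher and 5 lower (33.3%) and 3 and 1 synthetases (36.4%), both near or below that share. They gave 4 and 3 genes of the ATF6 and XBP1 arm (53.8%) and 8 and 1 further stress genes (90.0%). Leaving out single arrays ended 7 of these 26 calls: EIF2B5 without any 1 of 7 arrays, that is all but WT 2, WT+ATMi 1, Wip1SH 1, Wip1SH 3 and Wip1SH+ATMi 1 (log2 -0.29 to -0.20, adjusted p = 0.0527 to 0.155), SESN2 without WT 1, WT 2, WT+ATMi 3, Wip1SH+ATMi 1, Wip1SH+ATMi 2 or Wip1SH+ATMi 3 (log2 0.25 to 0.39, adjusted p = 0.053 to 0.148), LONP1 without WT 2, Wip1SH+ATMi 1 or Wip1SH+ATMi 2 (log2 -0.29 to -0.27, adjusted p = 0.054 to 0.0698) and HYOU1 without WT 2 or Wip1SH+ATMi 2 (log2 -0.27 to -0.24, adjusted p = 0.056 to 0.0606). The others were YARS1 without Wip1SH+ATMi 3 (log2 0.24, adjusted p = 0.0522), EDEM1 without WT 1 (log2 0.32, adjusted p = 0.0682) and CRELD2 without Wip1SH+ATMi 3 (log2 -0.26, adjusted p = 0.0503).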

How the data were processed

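Total RNA from 12 cultures was hybridised to Illumina HumanHT-12 type bead arrays as biotinylated cRNA, per the labels' protocols. The deposited table holds an intensity per probe, not normalized, and a detection p-value per probe, per the file headers. A second deposited table holds log2 values whose processing the sources used here do not state; these equalled the values computed here to within 5e-06. From the intensities, limma 3.58.1 in R 4.3.3 (neqc: normexp background correction with negative controls inferred from the detection p-values, offset 16, quantile normalization, log2) gave the values tested. Of 47323 probes, 30113 had 1 gene symbol, 8 several and 17202 none in the platform annotation. For 30074 the gene ID was found in the gene reference, and its current symbol was used. Probes with a detection p under 0.05 on 3 of 12 arrays were kept (15772), and each gene took its brightest kept probe (3150 genes had several).

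Group means were fitted jointly over all 12 arrays (lmFit, eBayes, two-sided, Benjamini-Hochberg over 11785 genes, threshold 0.05). The number of arrays limits the precision: the median SE of a member's log2 fold change was 0.093. Scripts were checked on simulated data. Members, lists and tests were chosen with earlier results of these data known. Values on every array were printed for ATF4, DDIT3, ASNS and, per comparison, the 4 members called highest and the 4 called lowest by size of change; from the other lists, up to 3 called genes per comparison and direction by smallest adjusted p, except for both perturbations against neither, where counts are given. Genes whose call in these lists was lost without 1 array were also named, after their values were seen. Neither slide nor scan date was among the labels or headers. Replicate correlations across all genes were 0.991 to 0.995 within groups and 0.976 to 0.988 between them.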

Additional observations from a re-analysis of the deposited data

Results flagged for a closer look

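Of 86 genes tested among the members and the surrounding lists, 3 passed the test of the interaction between inhibitor and hairpin, 3.49% beside 3.11% of all genes tested, a share near the background. CREBRF had an interaction of -0.73 ± 0.16 (adjusted p = 0.0319). Its second probe moved by 0.60 with the inhibitor in parental cells and by 0.12 in hairpin cells, the same order as the tested probe.

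GDF15 had an interaction of -0.80 ± 0.14 (adjusted p = 0.0111). It was 0.89 higher with the inhibitor in parental cells and at 0.089 in hairpin cells, and the call was kept under all 23 alternatives. IARS1 had an interaction of -0.52 ± 0.13 (adjusted p = 0.0468), with -0.023 in parental and -0.55 in hairpin cells. That call was lost without any 1 of the 12 arrays (adjusted p = 0.0607 to 0.105).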

How the results depend on the processing

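The limits are these: 3 arrays a group, arrays whose brightness follows the groups, no control hairpin and no measure of ATF4 protein. Of 95 member calls in 6 comparisons, 94 were kept with normexp offset 50, 92 with no background correction, 95 with the deposited log2 values, 92 of 92 with the stricter detection filter, 90 with no filter, 90 with the mean of a gene's probes, 93 with array weights, 79 of 94 with only the groups compared, 81 with medians equal over the tested probes, 72 over all probes and 29 with detected probes as a covariate. Calls kept under every alternative numbered 12 of 22 for Wip1SH vs WT, 10 of 22 for Wip1SH+ATMi vs WT+ATMi, 1 of 24 for Wip1SH+ATMi vs WT and 0 for either inhibitor comparison.

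With array medians equal over all probes, members higher and lower were 23 and 0 (Wip1SH vs WT), 25 and 0 (WT+ATMi vs WT), 10 and 2 (Wip1SH+ATMi vs Wip1SH), 11 and 0 (Wip1SH+ATMi vs WT+ATMi), 28 and 1 (Wip1SH+ATMi vs WT) and 0 in the interaction. That scaling reversed SHMT2 in Wip1SH vs WT (0.012). In WT+ATMi vs WT it reversed the sign of the called genes PYCR1 (0.015), EIF2B2 (0.13), WARS1 (0.17), GARS1 (0.19) and LONP1 (0.12). Genes not called in the main fit were called there with the opposite sign: PSAT1 (0.29), MTHFD2 (0.42), ASNS (0.32), ALDH18A1 (0.43), SLC3A2 (0.32), SLC38A2 (0.36) and SLC1A5 (0.32). In Wip1SH+ATMi vs WT the same held for PHGDH (0.38), ALDH18A1 (0.40) and SLC38A2 (0.39), none of them called in the main fit.

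With medians equal over the tested probes, 6 were higher in WT+ATMi vs WT, 5 higher in Wip1SH+ATMi vs Wip1SH, and the interaction had 0. With detected probes as a covariate, members lower numbered 1 in Wip1SH vs WT and 1 in Wip1SH+ATMi vs WT+ATMi, none was called in either inhibitor comparison (0 higher, 0 lower) or the interaction (0), and Wip1SH+ATMi vs WT had 1 higher and 0 lower, with XPOT reversed at -0.14. The mean of a gene's probes left 1 lower in WT+ATMi vs WT, only the groups compared left 6 higher in either inhibitor comparison, and no background correction left 0 in the interaction. Of the groups compared in pairs, only WT+ATMi and Wip1SH+ATMi overlapped in the count of detected probes. Elsewhere the fit with it cannot separate brightness from the perturbations. The causes were not tested.

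Leaving out 1 array gave 17 to 18 higher and 2 to 4 lower (Wip1SH vs WT), 6 to 10 and 2 to 3 (WT+ATMi vs WT), 4 to 10 and 2 to 5 (Wip1SH+ATMi vs Wip1SH), 15 to 18 and 0 to 3 (Wip1SH+ATMi vs WT+ATMi), 19 to 21 and 3 to 3 (Wip1SH+ATMi vs WT), and 0 to 1 lower in the interaction.

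The labels number replicates alike in each group without saying that a number was shared. Deviations of same-numbered arrays correlated at 0.061 to 0.14 for Wip1SH vs WT and 0.048 to 0.13 for Wip1SH+ATMi vs WT+ATMi, each array closest to its own number in both (3 of 3), but not in the other 3 comparisons (0 or 1), so no pairing was assumed. The fit with a replicate block gave 18 higher and 4 lower, 8 and 2, 8 and 3, 18 and 3, and 21 and 3 in the order just given, and 1 lower in the interaction, so 89 of 95 calls were kept.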
